A study of Rattus norvegicus with 2 samples.

Results

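The genes described here serve the growth of blood vessels. They comprise 10 rat genes, of 22093 with a named probe set, that were taken by gene symbol for their known roles. The choice was made with earlier results of these data known. The genes are the growth factors Vegfa and Vegfc, the receptors Kdr, Flt1 and Nrp1, and the angiopoietin Angpt2 with its receptor Tek. The others are the endothelial surface proteins Pecam1, Cdh5 and Plvap. All rats were F344 males, of an inbred strain, and per the labels were 114 weeks old when urinary bladder RNA was taken. The DMA-tumor group had received 200 ppm dimethylarsinic acid (DMA), a methylated arsenic metabolite, in drinking water for 2 years from 10 weeks of age. Its RNA pooled 6 bladder tumors according to the design text, a number that is smaller in the methods. The Control group had received 0 ppm over the same time, and its RNA was a pool of 5 bladders that the labels call epithelium and the methods call bladder tissue. Per the methods the tumors were picked macroscopically, by size, and were taken as urothelial carcinomas without histology. Each group had 1 array, so the differences compare 2 RNA pools, without replicates, errors or tests. The median signal over all probe sets was 52.3 on the DMA-tumor array and 50.6 on the Control array, and 36.0% and 33.0% of the probe sets reached 100. The 99th percentile was 171248 on the DMA-tumor array and 83300 on the Control array, so the upper signals differed more than the medians.

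As background, the ligand VEGF-A is secreted by epithelial, stromal and tumor cells and acts on the receptor tyrosine kinases KDR (VEGFR2) and FLT1 (VEGFR1) of endothelial cells. KDR carries most of the growth signal, while FLT1 binds the ligand tightly and also exists as a soluble trap. Angiopoietins act through the receptor TEK (TIE2), where angiopoietin 1 keeps vessels quiet and angiopoietin 2 loosens them. The bladder has a dense capillary bed directly under the urothelium.

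A signal of 100 was used as the lower limit, as in the methods of the study, and 12074 genes that reached it on at least 1 array were kept. All 10 genes were kept, 8 of them with at least 100 on both arrays. Plvap and Vegfc passed through the Control array alone. A gene was called higher or lower where the ratio was at least 2 or at most 0.5 and the Z-score over all kept genes was at least 2 or at most -2, which took a difference of at least 1.97 or at most -2.11 on the log2 scale. Of the 10 genes, 2 (20.0%) met both criteria, Vegfa higher and Plvap lower, where 4.89% of all kept genes did (2.53% higher and 2.37% lower). By the ratio alone, 3 were higher (Vegfa, Kdr and Flt1) and 1 was lower (Plvap), against 8.87% and 10.5% of all kept genes, so that 40.0% passed in either direction beside 19.4% of all. The other 6 lay within 2-fold. Since the 10 genes were chosen with earlier results of these data known, the shares of 20.0% and 40.0% are no test. The median log2 difference (DMA-tumor minus Control) of the 10 genes was 0.10, beside -0.08 over all kept genes, and it turned to -0.11 after quantile normalization, where that of all kept genes was -0.34.

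**Figure D1:**
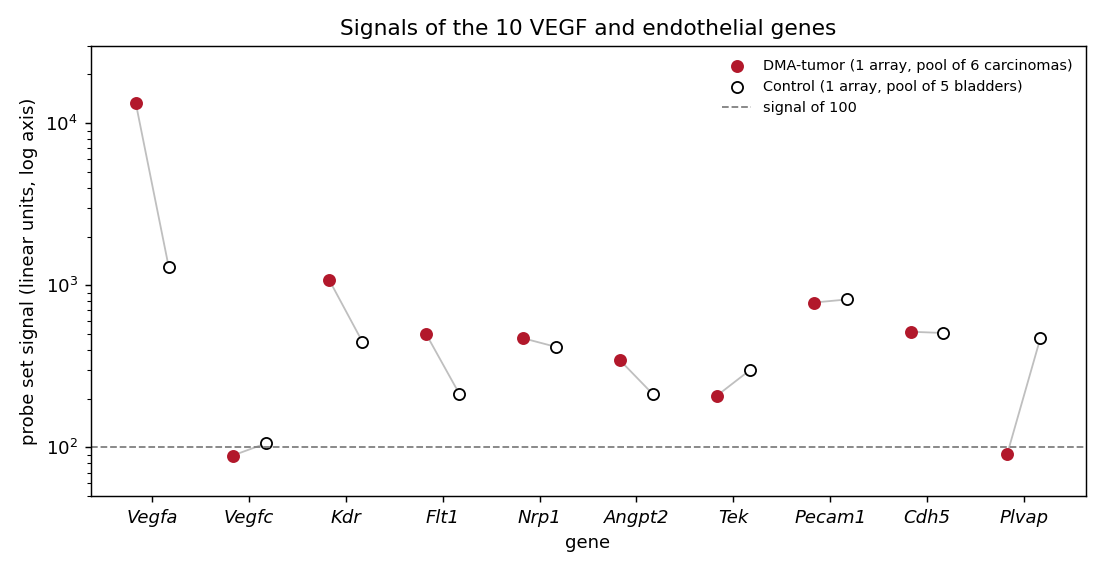
Probe set signal (linear units on a log axis) of the 10 genes on the DMA-tumor array (filled points) and the Control array (open points), 1 array each, with a dashed line at 100. Vegfa stands at 13312 and 1301, Kdr and Flt1 are higher in the tumors, Pecam1 and Cdh5 are level, and Plvap lies below the line in the tumors.

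Among the ligands, Vegfa was the gene with the widest difference. Its signal was 13312 in the DMA-tumor array and 1301 in the Control array, a 10.2-fold higher value (log2 difference 3.36, Z-score 3.36). It ranked 91 of 12074 genes from the highest difference, so that 0.745% of the genes lay above it. The other VEGF family genes did not share this. Vegfb, whose protein binds FLT1, had signals of 623 and 1218 in the DMA-tumor and Control arrays (1.95-fold lower, log2 difference -0.97). The lymphatic growth factor Vegfc was at the limit of detection, with 89.1 in the DMA-tumor array and 105.8 in the Control array, and its log2 difference of -0.25 shrank to -0.08 once signals under 100 were raised to 100. Vegfd (99.5 and 69.2) and the placental growth factor gene Pgf (75.8 and 98.98) were under 100 on both arrays and no direction is given for them. Of the 5 ligand genes, 3 were kept, 1 was called higher and 0 lower, where 2.53% of all kept genes were called higher. Their median was -0.25, or 1.19 over Vegfa and Vegfb alone, which reached 100 on both arrays. The log2 differences of Vegfa and Vegfb were 4.32 apart.

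Promoter windows from RefSeq (250 bases before to 50 after the start, build GRCr8) were listed for 6 of the 10 genes, and those of the 4 genes with a ratio beyond 2 are shown. Capitals mark the core of the hypoxia-inducible factor (HIF) element, ACGTG or GCGTG, and the GC box GGGCGG bound by SP1 factors, each searched on both strands with no base shared between them. For Vegfa the first of 2 listed starts is shown, and the window of the other held neither element.
Vegfa promoter, GRCr8 chr9:22452604-22452903, plus strand: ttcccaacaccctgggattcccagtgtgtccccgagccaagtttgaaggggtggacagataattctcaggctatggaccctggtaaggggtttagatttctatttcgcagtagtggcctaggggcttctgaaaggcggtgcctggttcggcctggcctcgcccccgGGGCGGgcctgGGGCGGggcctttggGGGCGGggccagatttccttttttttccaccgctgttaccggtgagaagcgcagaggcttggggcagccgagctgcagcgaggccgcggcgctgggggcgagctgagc
Kdr promoter, GRCr8 chr14:32571813-32572112, plus strand: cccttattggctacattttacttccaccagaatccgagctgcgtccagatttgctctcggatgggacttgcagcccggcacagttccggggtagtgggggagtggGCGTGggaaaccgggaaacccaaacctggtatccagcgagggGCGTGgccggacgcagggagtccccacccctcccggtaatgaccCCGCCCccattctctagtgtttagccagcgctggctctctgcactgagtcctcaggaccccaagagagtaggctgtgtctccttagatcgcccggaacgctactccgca
Flt1 promoter, GRCr8 chr12:12333180-12333479, plus strand: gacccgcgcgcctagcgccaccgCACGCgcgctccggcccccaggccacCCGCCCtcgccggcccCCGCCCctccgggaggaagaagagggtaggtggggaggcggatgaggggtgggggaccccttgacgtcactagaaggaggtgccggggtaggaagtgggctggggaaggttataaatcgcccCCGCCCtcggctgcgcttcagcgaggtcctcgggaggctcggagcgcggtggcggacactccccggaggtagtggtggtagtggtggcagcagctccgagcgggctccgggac
Plvap promoter, GRCr8 chr16:18231230-18231529, minus strand: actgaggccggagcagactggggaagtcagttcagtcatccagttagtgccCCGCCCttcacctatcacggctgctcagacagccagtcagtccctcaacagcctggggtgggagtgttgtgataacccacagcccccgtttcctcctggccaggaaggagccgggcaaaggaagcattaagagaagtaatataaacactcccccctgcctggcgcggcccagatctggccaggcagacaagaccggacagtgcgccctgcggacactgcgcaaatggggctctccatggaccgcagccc
The Vegfa window held 3 GC boxes, at 84, 73 and 58 bases before the start, and no HIF core. The Kdr window held 2 HIF cores, at 145 and 103 bases before the start, and 1 GC box. In the Flt1 window 1 HIF core and 3 GC boxes were found, with a TATAAA 75 bases before the start. Plvap had 1 GC box, 199 bases before the start, a TATAAA at 60 bases and no HIF core. Of the listed genes within 2-fold, Nrp1 had 2 HIF cores and Vegfc none. Outside the 10 genes, the windows of Nrp2 and Vegfb held 2 and 1 HIF cores, and those of Ndufa4l2, Adm and Egln3 held none. Of all 33469 promoter windows of the same length, 41.6% held a HIF core, 33.1% a GC box and 14.2% a TATAAA on either strand. The short ETS core GGAA was present in all 4 windows and in 95.8% of all windows. These matches describe letters in a short window and say nothing of binding, and elements farther from the start were not searched.

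The VEGF receptor genes Kdr and Flt1 were higher in the tumors by the ratio and not by the Z-score. Kdr read 1072 in the DMA-tumor array and 449 in the Control array (2.39-fold higher, log2 difference 1.26, Z-score 1.30), and 6.25% of all kept genes had a higher difference. For Flt1 the signals were 499 in the DMA-tumor array and 215 in the Control array (2.32-fold higher, log2 difference 1.22, Z-score 1.26). Flt1 was the 1 gene of the 10 with a further probe set, which read 145 and 101 (log2 difference 0.51). With both probe sets averaged the log2 difference of Flt1 was 0.86, and after quantile normalization it was 0.94, so that its ratio was then under 2, while that of Kdr stayed at or above 2 with a lowest log2 difference of 1.06. The coreceptors parted. Nrp1, which binds VEGF-A together with KDR, read 472 in the DMA-tumor array and 417 in the Control array (log2 difference 0.18, and -0.03 after quantile normalization). Nrp2, the coreceptor of lymphatic and venous vessels that is also made by other cells, read 688 and 2203 (3.20-fold lower, log2 difference -1.68), a difference that the ratio alone would call. The log2 differences of Nrp1 and Nrp2 were 1.86 apart. The lymphatic receptor Flt4 was under 100 on both arrays (77.6 and 64.2). Of these 5 receptor genes 4 were kept, 0 were called by both criteria, 2 were at least 2-fold higher and 1 at least 2-fold lower, with a median of 0.70.

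Angpt2 and Angpt1 lay on opposite sides of 0. Angpt2, made by endothelial cells of sprouting vessels, had signals of 345 in the DMA-tumor array and 213 in the Control array (1.62-fold higher, log2 difference 0.70, lowest value 0.38 after quantile normalization). Angpt1, made by perivascular and stromal cells, had signals of 390.5 and 1118 (2.86-fold lower, log2 difference -1.52). Neither met both criteria, and the gap between their log2 differences was 2.21. Beside these values for Angpt1 and Nrp2, all 9 fibroblast markers were called lower, with a summed signal of 1521 in the DMA-tumor array and 160872 in the Control array, and their part in either was not tested. Their receptor gene Tek read 208 in the DMA-tumor array and 299 in the Control array (1.44-fold lower, log2 difference -0.52), and the related receptor gene Tie1 read 126 and 143 (log2 difference -0.18). Angpt4 was under 100 on both arrays. Within this list of 6 genes (Ptprb had no probe set named with its symbol alone), 4 were kept, 0 were called in either direction and the median was -0.35.

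**Figure D2:**
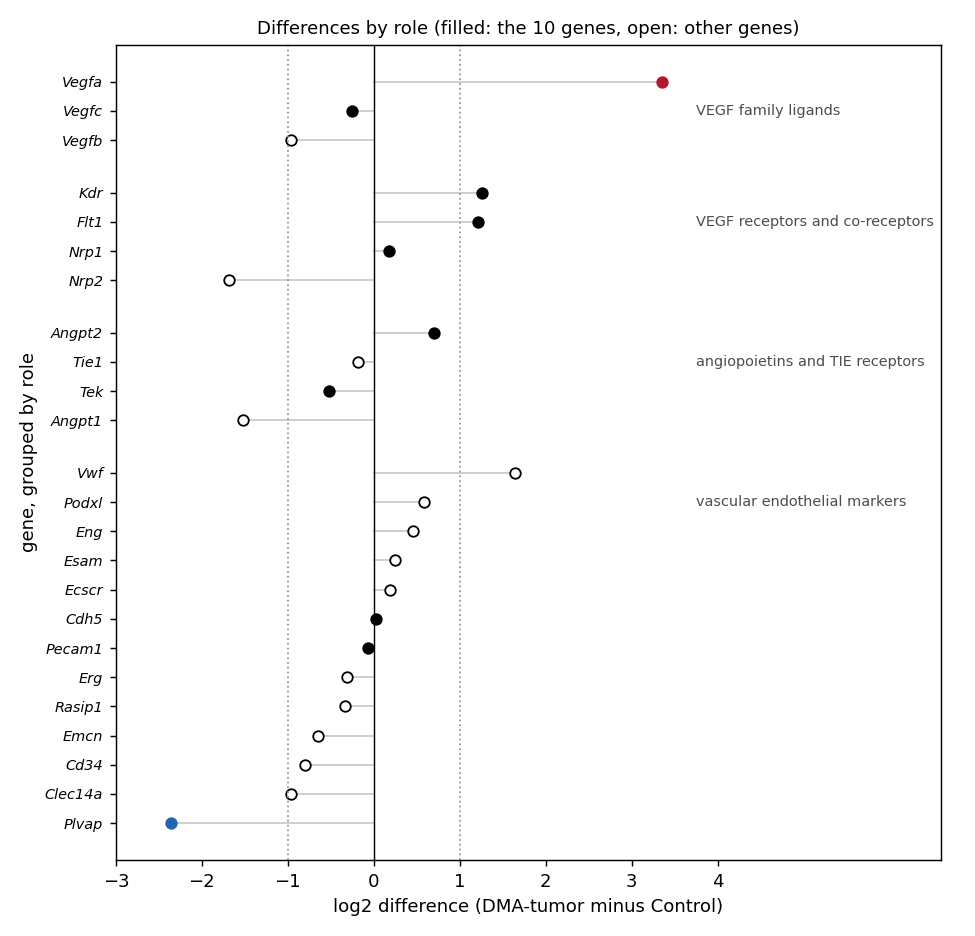
Log2 difference (DMA-tumor minus Control) of the kept genes, grouped by role, with filled points for the 10 genes, open points for the other genes of the lists, red for called higher, blue for called lower and dotted lines at 2-fold. Vegfa, at 3.36, and Plvap, at -2.36, are the called genes, while Kdr, Flt1 and Vwf pass the line at 2-fold and Nrp2 and Angpt1 pass it on the other side.

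Of the endothelial surface genes, Pecam1 and Cdh5 were nearly level and Plvap was lower. Pecam1 (CD31), the adhesion molecule of endothelial junctions that platelets and leukocytes also carry, read 783 in the DMA-tumor array and 818 in the Control array (log2 difference -0.06). Cdh5, the VE-cadherin gene and the more specific of both, read 517 and 508 (log2 difference 0.03, and -0.18 after quantile normalization). Both lay near the middle of all genes, with 48.9% and 42.5% of the kept genes above them. Plvap, which forms the diaphragms of fenestrated capillaries, stood apart. Its signal was 91.6 in the DMA-tumor array and 470 in the Control array, at least 4.70-fold lower with the tumor value raised to 100 (log2 difference -2.36 as measured, with a Z-score of -2.25, and -2.23 with that value raised). The log2 difference of Kdr was 1.23 above Cdh5 and 1.32 above Pecam1, and that of Flt1 1.19 and 1.28 above them. These gaps compare ratios within a single pair of arrays and have no error.

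Other endothelial markers were spread on both sides of the same level. Of 25 vascular endothelial markers, 24 had a probe set, 14 were kept, 0 were called higher and 1 (Plvap) was called lower. Of all kept genes, 2.37% were called lower. The median of the 14 was -0.12. Without the 3 surface genes above, 11 were kept, all but 1 within 2-fold. Their median was -0.18, or -0.15 with signals under 100 raised to 100. The exception was Vwf, the von Willebrand factor gene of endothelium and megakaryocytes, at 217 in the DMA-tumor array and 69.6 in the Control array (at least 2.17-fold higher). Of the 11 markers, 5 had a positive log2 difference and 6 a negative one. Several read near 100 in the DMA-tumor and Control arrays, where the size of a difference is uncertain. These were Ecscr (115 and 101), Rasip1 (104 and 131), Tie1 (126 and 143), Esam (139 and 118) and Erg (89.4 and 111). Podxl (614 and 411) and Eng (1714 and 1250) had log2 differences of 0.58 and 0.46. Clec14a (143 and 279), Cd34 (220.1 and 382) and the capillary and venous sialomucin gene Emcn (395 and 618) had log2 differences of -0.96, -0.79 and -0.65. Measured from the median of those 11 markers, Vegfa stood at 3.54, Kdr at 1.44, Flt1 at 1.397, Angpt2 at 0.88, Nrp1 at 0.36, Cdh5 at 0.21, Pecam1 at 0.12 and Tek at -0.34 on the log2 scale. Vegfc and Plvap, under 100 in the tumors, are left out of this order. Erg, under 100 in the tumors, and Vwf, under 100 in the Control array, stayed among the 11 markers. VEGF-A is secreted by epithelial, stromal and tumor cells, so the place of Vegfa in this order is not one among endothelial genes. The 10 markers under 100 on both arrays included Cldn5, Icam2, Robo4, Nos3, Sox17 and Sox18. No marker was at 0, and the summed signal of the 24 markers was 5904 in the DMA-tumor array and 6092 in the Control array. In pooled tissue RNA, a change in the number of endothelial cells and a change in their RNA content cannot be told apart.

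Genes of lymphatic vessels and pericytes, which wrap small vessels, gave 1 call each, where 4.89% of all kept genes were called. Of 7 lymphatic markers 4 were kept and 1 was called higher, with a median of -0.84 that was -0.18 with signals under 100 raised to 100. That gene was Reln (202 in the DMA-tumor array and 48.3 in the Control array, at least 2.02-fold higher), and its call was lost with signals under 100 raised to 100 and with 50 added to each signal. Pdpn, which basal epithelium also expresses, read 5723 and 16226 (2.84-fold lower). Lyve1 read 116 and 147, Mmrn1 40.0 and 102, and the defining lymphatic factor Prox1 was under 100 on both arrays at 30.6 and 41.3. Of 9 pericyte markers 7 were kept and 1 was called higher, with a median of 0.18 and summed signals of 8460 and 6063 in the DMA-tumor and Control arrays. The called gene was Ndufa4l2, a HIF-responsive mitochondrial gene of pericytes and hypoxic tumors, at 1204 in the DMA-tumor array and 58.4 in the Control array (at least 12.0-fold higher). Notch3 was 2.66-fold higher (1197 and 451) and the channel subunit gene Abcc9 was 3.53-fold lower (248 and 876), neither by both criteria. Rgs5 read 4790 and 3672, and Kcnj8 78.0 and 110.1.

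Of the sprouting genes kept, 9 of 11 lay within 2-fold, as did 9732 of all 12074 kept genes, a like share. Of 16 genes of tip cells and of Notch, apelin and ephrin signalling 11 were kept, 0 were called in either direction, 0 were at least 2-fold higher and 2 at least 2-fold lower, with a median of -0.12 that was 0.26 with no filter on signal. The lower pair were the apelin receptor gene Aplnr (94.6 in the DMA-tumor array and 406 in the Control array, at least 4.06-fold lower, log2 difference -2.10) and the netrin receptor gene Unc5b (1852 and 7598, 4.10-fold lower), with Z-scores of -1.996 and -1.93, and both were called with signals under 100 raised to 100 and with no filter on signal. The tip cell ligand gene Dll4 read 140.5 and 71.3 (log2 difference 0.49 with the Control signal raised to 100), and the guidance receptor gene Robo1 1892 and 1192. Esm1 and Apln, known as VEGF-responsive tip cell genes, were under 100 on both arrays. In this list Efnb2 read 13349 in the DMA-tumor array and 14867 in the Control array, Notch1 5679 and 8082, and Jag1 5050 and 5479. These and Unc5b were above Pecam1 and Cdh5 on both arrays, and which cells gave their signals was not tested.

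**Figure D3:**
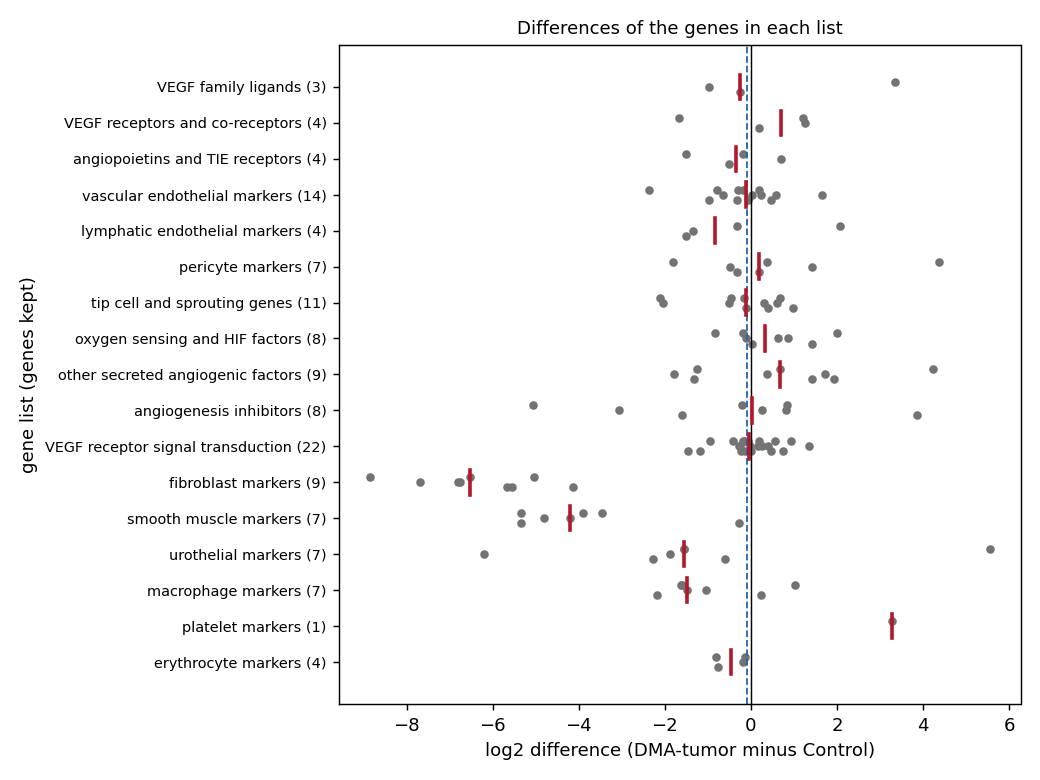
Log2 difference (DMA-tumor minus Control) of each kept gene in the 17 lists (grey points, number kept in parentheses), with the median of each list in red and that of all kept genes (-0.08) as a dashed blue line. The medians of the vascular lists lie between -0.84 and 0.70 (the lowest, of the lymphatic list, is -0.18 with signals under 100 raised to 100), while all 9 fibroblast markers lie below -4.

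Genes that sense oxygen and control Vegfa were partly higher. HIF factors are degraded in the presence of oxygen after hydroxylation by the EGLN enzymes, and EGLN3 is itself a HIF target. Of 10 such genes 8 were kept and 1 was called higher, where 2.53% of all kept genes were called higher. The median was 0.33, and it was 0.09 after quantile normalization and 0.02 with no filter on signal. Egln3 read 39360 in the DMA-tumor array and 9775 in the Control array (4.03-fold higher, log2 difference 2.01), a call that was lost after quantile normalization and after removal of a loess trend, with log2 differences of 1.59 and 1.48. Hif1a read 32410 and 12088 (2.68-fold higher, log2 difference 1.42, and 0.89 after the loess trend was removed), Egln1 1128 and 626 (1.80-fold higher), Epas1, the HIF factor of endothelium, 2343 and 1509 (1.55-fold higher), and Hif1an 804 and 1444 (1.79-fold lower). Of 13 other secreted angiogenic factors 9 were kept, 1 was called higher and 0 lower, with a median of 0.68. After removal of the loess trend and after quantile normalization 2 were called higher, with Cxcl1 added, and the medians were 0.33 and 0.44, while with at least 100 required on both arrays 0 were called and the median was -0.45. Adm, the vasodilator adrenomedullin and a HIF target, read 1506 in the DMA-tumor array and 79.7 in the Control array (at least 15.1-fold higher). Cxcl1 (131 and 34.1), Hbegf (186 and 56.9) and Spp1 (139 and 52.0) had tumor signals not far above 100 and were at least 1.31-fold, 1.86-fold and 1.39-fold higher, and the matricellular gene Ccn1 was 3.43-fold lower (256 and 880).

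Angiogenesis inhibitors were far higher or far lower in single cases. Of 11 genes 8 were kept, 1 was called higher and 2 lower, where 2.53% of all kept genes were called higher and 2.37% lower. Serpinf1 and Sema3a were kept through the Control array alone. The median was 0.03, and it was -0.16 after quantile normalization and -0.21 with no filter on signal. Thrombospondin 1 (Thbs1), which blocks endothelial growth through CD36 and CD47, read 28252 in the DMA-tumor array and 1945 in the Control array (14.5-fold higher, log2 difference 3.86). Its relative Thbs2 read 272 and 9067 (33.3-fold lower, log2 difference -5.06), so that both stood 8.92 apart on the log2 scale. Serpinf1, the gene of pigment epithelium-derived factor, was at least 7.45-fold lower (89.7 and 745). Sema3a, which competes with VEGF-A for NRP1, read 65.9 and 200.1 (at least 2.00-fold lower), and Col18a1, the precursor of endostatin, 238 and 134 (1.77-fold higher). Cxcl10 read 343 and 196, and Timp3 732 and 609.

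Of the kept genes of the signalling chain behind the receptors, 19 of 22 lay within 2-fold, near the share of all kept genes given above. Of 27 genes between VEGF receptors and their effects 23 had a probe set, 22 were kept and 0 were called in either direction, 1 was at least 2-fold higher and 2 at least 2-fold lower, and the median was -0.04. The calcineurin subunit gene Ppp3ca read 9338 in the DMA-tumor array and 3654 in the Control array (2.56-fold higher), Mapk14 (p38) 1951 and 4425 (2.27-fold lower), the small heat shock protein gene Hspb1 332 and 916 (2.76-fold lower), and Prkcb 101.8 and 196 (1.93-fold lower). Rcan1, a gene induced by calcineurin and NFAT in stimulated endothelium, read 276 and 327, and Plcg1, the enzyme that binds activated KDR, 1732 and 1976 (both looked up after their values were seen).

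**Figure D4:**
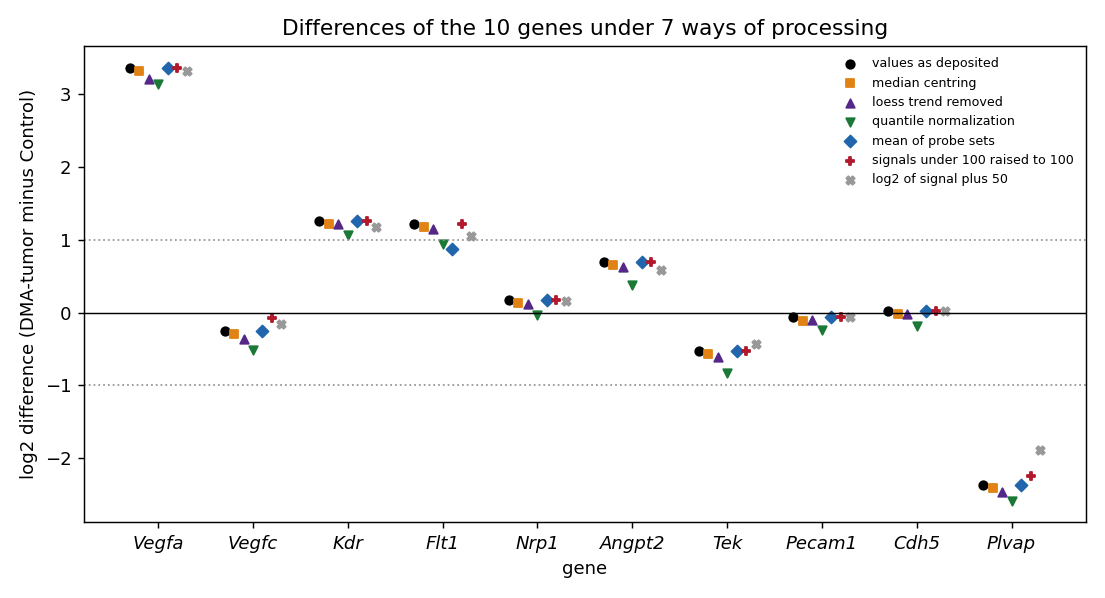
Log2 difference (DMA-tumor minus Control) of the 10 genes with the values as deposited and under 6 other ways of processing, with dotted lines at 2-fold. Vegfa stays between 3.14 and 3.36 and Plvap between -2.58 and -1.88, while Flt1 crosses the line at 2-fold and Cdh5 and Nrp1 cross 0.

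Markers of other tissue in the bladder wall were measured beside the endothelial ones. All 9 fibroblast markers, Dcn, Ogn, Dpt, Col1a2, Col1a1, Pdgfra, Col3a1, Lum and Fbln1, were called lower (median -6.54, summed signal 1521 in the DMA-tumor array and 160872 in the Control array). Of all kept genes, 2.37% were called lower. Ogn, Dpt, Pdgfra and Lum were under 100 in the tumors, and the fibroblast median was -5.56 with signals under 100 raised to 100. Of 8 smooth muscle markers 6 were called lower and 0 higher (median -4.21, summed signal 4517 and 56072). The called genes were Des, Cnn1, Actg2, Myh11, Tagln and Acta2. Of 8 macrophage markers 1 was called lower, Laptm5, whose call was lost after removal of the loess trend (median -1.48, summed signal 1809 and 3622). By the ratio alone 5 of the 7 kept macrophage markers were lower, among them Cd163 with a tumor signal under 100. Cd14 was 2.04-fold higher (365 in the DMA-tumor array and 178 in the Control array), and Cd68 read 496 and 419. No marker of these lists was at 0. The fibroblast gene Dcn read 126 in the DMA-tumor pool and 57824 in the Control pool, labelled epithelium, and the smooth muscle gene Acta2 read 3292 and 36478. Of 8 urothelial markers 7 were kept, 1 was called higher (the basal keratin gene Krt14, log2 difference 5.54) and 2 lower (the umbrella cell genes Krt20, -6.21, and Upk2, -2.28), with a median of -1.56. After removal of the loess trend 5 were called lower, with Upk1a, Upk1b and Upk3a added, and the median was -2.64. Krt20 read 77.9 in the DMA-tumor array, and its log2 difference was -5.85 with that signal raised to 100. Angpt1, Nrp2, Thbs2, Serpinf1 and Ccn1, which were lower in the tumors, are known to be expressed in stromal cells as well as in vessels. Stromal cells also secrete VEGF-A, and Vegfa was 10.2-fold higher. The part of these tissues in the values of any vascular gene was not tested.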

How the data were processed

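The authors deposited 1 table of linear intensity per probe set for both arrays. Its normalization is named as RMA, with Affymetrix Expression Console 1.4.1, in the submitters' processing notes, while the methods name a global median normalization and another array type, so it is not settled. Columns of other series numbered 0. Of 68842 probe sets, 23446 carried 1 gene symbol in the platform annotation, 505 several and 44891 none listed, and only the first were used, with the highest mean of both arrays per gene. All 10 genes matched RefSeq by Entrez ID. The log2 of each value was taken without further scaling and differences are DMA-tumor minus Control. No test was possible with 1 array per group, and precision is limited by that number. Folds against signals under 100 are lower bounds, for which the low signal was set to 100. The genes and lists were chosen with earlier results of these data known. Named were the 10 genes, the kept genes of the ligand, receptor and angiopoietin lists, and in each other list the called genes or, where none was called, up to 4 kept genes with the largest differences. Further genes named in those lists were added after their values were seen. The code that makes the calls was tested on simulated data, which says nothing of the spread between animals. Alternatives were median centring, a loess trend (span 0.3), quantile normalization, the mean of probe sets, signals raised to 100, a pseudocount of 50, other signal limits and the ratio alone. RefSeq names and promoters were of GRCr8, and the build behind the array was not given in the sources used here. Scripts ran in Python 3.11.15 with pandas 2.3.3, numpy 2.4.6, matplotlib 3.10.9 for plots and statsmodels 0.14.6 for loess.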

Additional observations from a re-analysis of the deposited data

How the results depend on the processing

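The median log2 difference of the 10 genes was 0.10, -0.11 after quantile normalization and 0.44 over the 8 genes with at least 100 on both arrays. Relative to the other endothelial markers it was 0.28, with values from 0.22 to 0.62 under the alternatives. The median of all kept genes shifted by -0.26 after quantile normalization and by -0.11 after the loess trend was removed. Over all genes, 305 were called higher and 286 lower. With no filter on signal these were 569 and 497, with a limit of 32 the number higher was 481, by a ratio of 2 alone they were 1071 and 1271, and by a ratio of 1.5 alone 2017 and 2597. Of the 10 genes 2 were called, against 1 with a signal of at least 100 required on both arrays, which removes Plvap, 4 by a ratio of 2 alone and 5 by a ratio of 1.5 alone, which adds Angpt2. Vegfa was called under all alternatives, and Plvap under all in which it was kept. Sign changes among the 10 genes were those of Cdh5 under median centring, loess and quantile normalization and of Nrp1 under quantile normalization. Background correction and slide could not be varied, since scanner files were not used here. No paired analysis was possible because each group had 1 array. A signal near 100, as for Vegfc and for Plvap in the tumors, leaves the size of a difference uncertain.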

Other observations

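Blood cell markers gave 1 call, where 4.89% of all kept genes were called. Of 5 erythrocyte markers 4 were kept (Hbb-b1, Hbb, Hba-a1 and Alas2) and 0 were called, with log2 differences from -0.80 to -0.14. The summed signals of the 5 were 90508 in the DMA-tumor array and 103290 in the Control array. Globin genes are near-identical copies whose probe sets may share signal. Of 4 platelet markers with a probe set, 3 were under 100 on both arrays (Pf4, Itga2b and Gp9), and the chemokine gene Ppbp read 350 in the DMA-tumor array and 36.3 in the Control array, at least 3.50-fold higher, a call that was lost with signals under 100 raised to 100.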
